A study of Mus musculus with 8 samples.

Results

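Ribosomal protein pseudogenes were examined in N2A (Neuro-2a) mouse neuroblastoma tumors, and the pattern described here is a count that was 0 in some tumors and high in others. The genes were all those whose symbol began with Rpl or Rps and ended in -ps with or without a number, and whose estimated reads, summed over the 8 tumors, reached 10. This gave 156 pseudogenes of 288 with such a symbol, in a table of 35419 genes. Of the other pseudogenes 48 had no read in any tumor and 84 had some reads but fewer than 10. The summed reads chose the genes, so their level over all tumors is a description, while the treatment was not used in the choice. At the threshold, Rps19-ps11 and Rpl7a-ps13 had 10 reads each and Rpl21-ps15 had 10.0, against 9.4 for each of Rpl27-ps1, Rpl23a-ps14 and Rpl13a-ps1 just outside.

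The tumors grew from 1000000 N2A cells placed under the skin of A/J mice. In the SR59230A group (tumors 1 to 4) the mice received SR59230A, a β3-adrenergic receptor antagonist, at 10 mg/kg into the peritoneum in 2 daily doses, and in the vehicle group (tumors 0 to 3) they received vehicle on the same schedule. Treatment began once a tumor could be felt, and the recipients were female mice of 4 weeks. A tumor is a mixture of the injected cell line and host cells, and each value comes from total RNA of a whole tumor. The labels do not say whether every tumor came from a separate mouse, so the p-values measure the spread between these samples. The study describes its sequencing as done in duplicate. The files hold 4 libraries per treatment, each taken here as a sample of its own (n = 4), and whether some are repeats of a tumor or mouse is not stated.

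The libraries held 23484190 to 43675495 estimated reads in SR59230A tumors and 28614914 to 44045575 in vehicle tumors. The 11 neuroblastoma markers summed here, among them Hand2 and Mycn, all had reads in every tumor, with a summed level of 531 to 856 CPM (estimated reads scaled to a library of 1000000) in SR59230A tumors and 716 to 1160 CPM in vehicle tumors. The 5 skeletal muscle markers summed to 2245 and 190 CPM in SR59230A tumors 1 and 2 and to at most 22.0 CPM in the other 6, and 3 of these 5 had reads in every tumor. Transcript models rich in satellite-like repeats took 6.69% of the reads of SR59230A tumor 4, 12.2% of vehicle tumor 0 and 8.99% of vehicle tumor 3, against at most 0.740% elsewhere. These 3 libraries are called the satellite-like libraries below.

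Ribosomal proteins build the small (Rps) and large (Rpl) subunits of the ribosome, and their messenger RNAs are among the most abundant in a growing cell. Such messengers have often been copied back into DNA and inserted elsewhere in the genome, which leaves processed pseudogenes without introns. A recent copy can still match the coding sequence of its parent gene base for base. Short reads that fall within such a copy carry nothing that tells it from its parent, and a program that estimates transcript levels must divide them.

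Of the 156 pseudogenes, 147 were annotated as processed pseudogenes and 6 as transcribed processed pseudogenes. The other 3, Rpl10-ps3, Rps12-ps3 and Rpl9-ps6, were annotated as protein coding despite their symbols. They lay on 20 chromosomes and traced by symbol to 49 parent genes, of which Rpl31 had 14, Rps12 had 13 and Rpl21 had 12. A protein-coding gene on the same strand spanned 17 of them and one on the other strand spanned 33.

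Sequences are shown for pseudogenes on which the results turn, 5′ to 3′ on their own strand, from the GENCODE M21 transcripts on GRCm38. The first set compares copies of Rpl31. Rpl31-ps8 is identical to the whole Rpl31 coding sequence of 378 bases and had reads in some tumors and 0 in others, while Rpl31-ps21 is a more diverged copy with reads in every tumor. The stretch covers the first 180 bases of each, which is chr15:90764477-90764656 on the minus strand for Rpl31-ps8 and chr5:21119343-21119522 on the minus strand for Rpl31-ps21. The Rpl31 stretch is joined from exons within chr1:39368149-39370086 on the plus strand. Capitals mark the 10 positions at which Rpl31-ps21 differs from its parent.
Rpl31-ps8: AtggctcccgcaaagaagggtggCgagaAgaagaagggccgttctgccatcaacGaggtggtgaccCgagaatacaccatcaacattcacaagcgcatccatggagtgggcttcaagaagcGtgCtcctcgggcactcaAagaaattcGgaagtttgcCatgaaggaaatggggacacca
Rpl31-ps21: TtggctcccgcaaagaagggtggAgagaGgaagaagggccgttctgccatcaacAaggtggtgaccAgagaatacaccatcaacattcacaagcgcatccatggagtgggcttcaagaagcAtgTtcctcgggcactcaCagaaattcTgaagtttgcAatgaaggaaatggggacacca
Rpl31: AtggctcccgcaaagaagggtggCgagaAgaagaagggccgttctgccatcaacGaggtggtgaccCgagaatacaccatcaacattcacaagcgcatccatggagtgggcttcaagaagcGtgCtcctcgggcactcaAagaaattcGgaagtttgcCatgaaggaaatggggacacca
Positions are counted from 1 at the 5′ end of the pseudogene and each token gives the parent's base first. The differences were A1T, C24A, A29G, G55A, C67A, G122A, C125T, A140C, G149T and C159A, and the first of them removed the start codon.

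Rpl14-ps1, at 0 in 1 tumor, had 4 substitutions in 653 bases and lacked 3 bases that Rpl14 has. The stretch from base 400 to base 450, at chr7:45325364-45325414 on the plus strand, holds C420T and A423G, in capitals like the differences in the pairs that follow, and its counterpart in Rpl14 lies at chr9:120574140-120574190 on the plus strand.
Rpl14-ps1: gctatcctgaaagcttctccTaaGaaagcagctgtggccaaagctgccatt
Rpl14: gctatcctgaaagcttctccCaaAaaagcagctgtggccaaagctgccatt

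Rpl3-ps1, which had more reads than Rpl3 in every tumor, differed at 2 of 1210 bases. The stretch from base 21 to base 120, at chrX:13202591-13202690 on the plus strand, holds C58A, and the Rpl3 stretch lies at chr15:80082467-80082566 on the minus strand.
Rpl3-ps1: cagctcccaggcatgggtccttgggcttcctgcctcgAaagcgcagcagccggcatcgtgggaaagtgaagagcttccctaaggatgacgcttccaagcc
Rpl3: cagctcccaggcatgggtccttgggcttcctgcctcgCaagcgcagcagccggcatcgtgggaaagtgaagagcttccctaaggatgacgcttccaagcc

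Rps2-ps6, the pseudogene with the smallest p for the treatment, had 7 substitutions and lacked 24 bases that Rps2 has. The stretch from base 21 to base 110, at chr14:76237436-76237525 on the minus strand, holds T60A, and the Rps2 stretch lies at chr17:24720296-24720385 on the plus strand.
Rps2-ps6: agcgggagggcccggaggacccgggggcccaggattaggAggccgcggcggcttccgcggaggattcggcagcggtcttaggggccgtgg
Rps2: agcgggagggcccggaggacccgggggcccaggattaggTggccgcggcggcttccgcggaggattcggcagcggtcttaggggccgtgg

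To describe how far the sequences overlap, every stretch of 31 bases (a word) in each pseudogene was looked up in all transcripts of the reference that the files also list. For 10 pseudogenes every word was also present in the parent gene, and 8 of these were identical to a complete parent coding sequence from start to stop codon. All 10 had at least 2145 reads. The other exact copies by symbol were Rpl10-ps1, Rpl38-ps2 and Rps13-ps2, and these 3 had no read in any tumor. Exact copies of a parent thus had at least 2145 reads or none at all.

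Reads were concentrated in few of the genes. In all, 15 pseudogenes had 1000 reads or more and held 1079312 of the 1086342 reads of the 156, or 99.4%. No pseudogene had between 603 and 2112 reads, and the limit of 1000 was set after this gap was seen. The median share of words found in no other gene was 0% for these 15 and 31.4% for the other 141, whose median total was 26.1 reads. Closeness to the parent did not always go with many reads, since Rpl23a-ps3 differed from Rpl23a at 1 of 468 bases and totalled 95.1 reads.

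**Figure D1:**
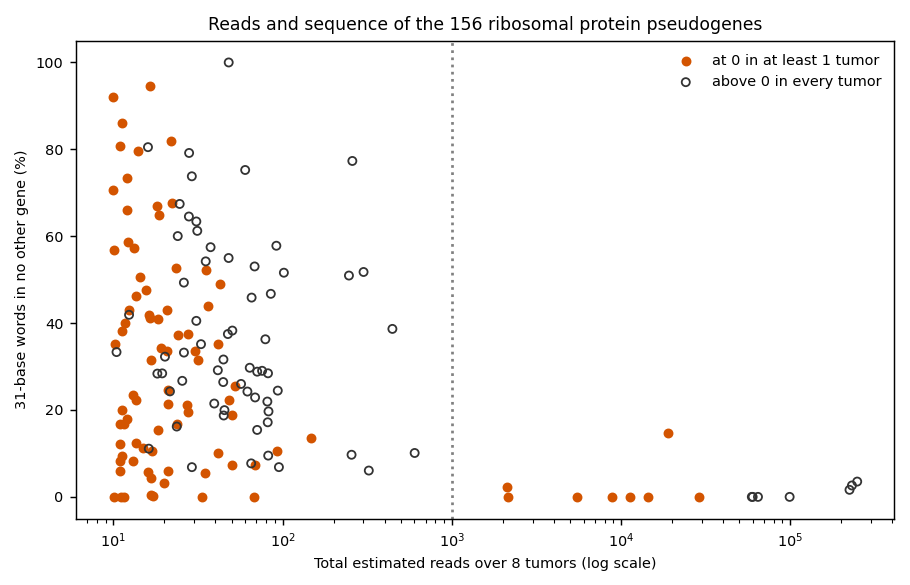
Each point is 1 of the 156 ribosomal protein pseudogenes, with its total estimated reads over 8 tumors on a log axis and, on the vertical axis, the share of its 31-base words found in no other gene (%). Filled points were at 0 in at least 1 tumor, open points were above 0 in every tumor, and the dotted line marks 1000 reads. The 15 pseudogenes right of the line all had under 15% of such words.

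Results showed a count of exactly 0 in at least 1 tumor for 86 of the 156 pseudogenes, and 70 had reads in all 8. Among the 86, 32 were at 0 in 1 tumor, 30 in 2 and 14 in 3, while 10 were at 0 in at least 4. For a gene with few reads a 0 is common. With totals of 10 to under 100 reads, 77 of 132 pseudogenes (58.3%) were at 0 in some tumor, beside 56.4% of all genes and 60.5% of other processed pseudogenes with such totals. In 78 pseudogenes under 1000 reads that were at 0 in some tumor, the highest tumor held a median of 5.1 reads.

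The pseudogenes with many reads differed from other genes with many reads. Of the 15 with at least 1000 reads, 8 (53.3%) were at 0 in some tumor, against 8 of 211 other processed pseudogenes (3.79%), 33 of 11417 genes overall (0.289%) and none of the 49 parent genes. Over these 15 pseudogenes and 8 tumors, 28 of 120 values were 0. Counting pseudogenes at 0 in some of the tumors kept and above 0 in others, the 8 became 4 without the 3 satellite-like libraries. Rpl15-ps3 then had reads in every tumor kept, while Rpl31-ps8, Rps6-ps4 and Rpl30-ps9 were at 0 in all of them. With single tumors left out the count was 6 to 8. These counts are descriptions of a list chosen by its reads. Of the 8 pseudogenes, 6 had every word in their parent, so their estimates, zeros included, depend on how shared reads were divided. A 0 is thus an estimate, and the part of this division in the zeros was not tested. In RNA of a whole tumor, fewer cells of a type and less RNA per cell cannot be told apart.

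**Figure D2:**
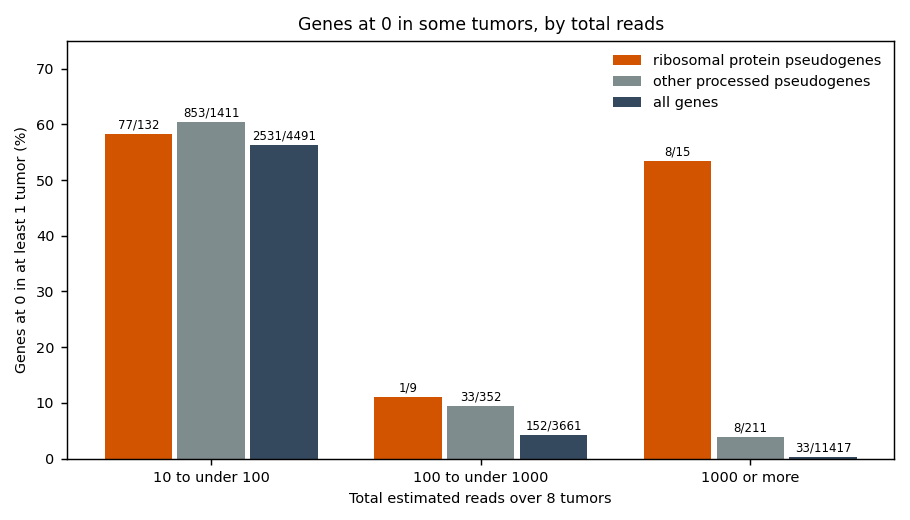
Bars give the percentage of genes at 0 in at least 1 of 8 tumors, by total estimated reads, for ribosomal protein pseudogenes, other processed pseudogenes and all genes, with the counts above each bar. The pseudogene bar stands at 53.3% in the class of 1000 reads or more, where the bar for all genes is at 0.289%.

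Rps12-ps3 had the most reads of the all-or-none pseudogenes. Its parent Rps12 encodes a protein of the small subunit. The estimates were 1931, 0, 758 and 9535 reads in SR59230A tumors 1 to 4, against 2747, 0, 2892 and 10984 in vehicle tumors 0 to 3. SR59230A tumor 2 and vehicle tumor 1, the 2 deepest libraries, were at 0, and the treatments overlapped. Every word of the reference version of Rps12-ps3 (494 bases) was in Rps12, while the files list a version of 396 bases.

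Rpl14-ps1 and Rpl10a-ps1 are copies of large subunit genes. Rpl14-ps1 had 1719, 0, 1848 and 5486 reads in SR59230A tumors, against 1353, 2917, 1306 and 4206 in vehicle tumors, so that SR59230A tumor 2 alone was at 0. Rpl10a-ps1 had 0, 0, 640 and 5194 reads in SR59230A tumors, against 1926, 897, 1005 and 4819 in vehicle tumors. Its 3 highest values were in the satellite-like libraries, and SR59230A tumors 1 and 2, with the muscle reads, were at 0. The part of either kind of read in this was not tested.

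Rpl31-ps8 and Rpl15-ps3 had opposite patterns. Rpl31-ps8 had 0, 0, 0 and 3234 reads in SR59230A tumors, against 560, 0, 0 and 5080 in vehicle tumors. Rpl15-ps3 had 3019, 2679, 2712 and 0 reads in SR59230A tumors, against 0, 1037, 1845 and 0 in vehicle tumors. Of the 156 pseudogenes, Rpl31-ps8 alone had reads in exactly the 3 satellite-like libraries and Rpl15-ps3 alone was at 0 in exactly those 3. Whether the satellite-like reads had a part in these zeros was not tested.

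Rpl36a-ps2 lies within Ddah1 on the same strand (chr3:145879020-145879340) and is identical to the coding sequence of Rpl36a. It had 378, 362, 682 and 1298 reads in SR59230A tumors, against 584, 1022, 0 and 1158 in vehicle tumors, and vehicle tumor 2 was the exception. Rps6-ps4 copies Rps6, the small subunit protein that S6 kinases phosphorylate, and Rpl30-ps9 copies Rpl30 of the large subunit. Both had 0 reads in all 4 SR59230A tumors and in vehicle tumors 0 to 2, while vehicle tumor 3 had 2145 reads of Rps6-ps4 and 2112 of Rpl30-ps9.

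Below 1000 reads the all-or-none pattern was small in size. Rpl9-ps6 had 50.3 reads in SR59230A tumor 1 and 0 in the other 3 SR59230A tumors and in all 4 vehicle tumors. Rpl9-ps4 was at 0 in all 4 SR59230A tumors, against 0, 2.6, 0 and 13.4 reads in vehicle tumors. Both copy Rpl9, a large subunit gene that had 18923 to 33207 reads in SR59230A tumors and 12703 to 29072 in vehicle tumors. At this depth a count of 0 allows up to 3 reads, or 0.0687 to 0.128 CPM in SR59230A tumors and 0.0681 to 0.105 CPM in vehicle tumors, for counting error only.

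**Figure D3:**
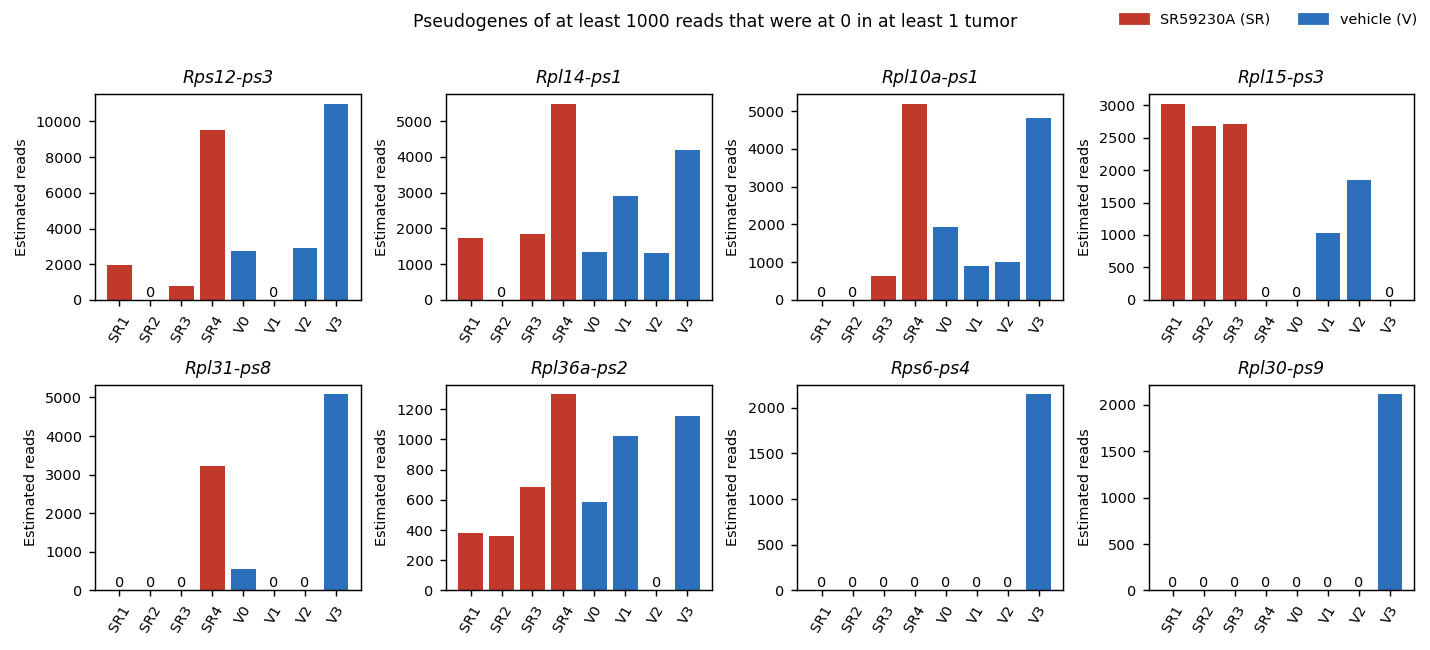
Bars give the estimated reads of 8 pseudogenes with at least 1000 reads in each tumor, SR59230A 1 to 4 (SR, red) left of vehicle 0 to 3 (V, blue), with a 0 printed where the estimate was 0 and a scale of its own for each panel. Rpl31-ps8 and Rpl15-ps3 have reads in opposite sets of tumors, and Rps6-ps4 and Rpl30-ps9 only in vehicle tumor 3.

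Each pseudogene was then set beside its parent. The reads of Rps12 itself varied far less than those of its copy, with 979.7, 916.9, 897.4 and 790.6 CPM in SR59230A tumors, against 718.7, 1167, 977.1 and 636.4 CPM in vehicle tumors. The share of Rps12-ps3 in the reads of the pair was 5.63%, 0%, 3.47% and 27.3% in SR59230A tumors, against 11.8%, 0%, 8.65% and 37.5% in vehicle tumors. The share was highest in SR59230A tumor 4 and vehicle tumor 3, where Rps12 was lowest in its treatment. Summed, the cytosolic ribosomal protein genes had 44872, 48421, 44011 and 39218 CPM in SR59230A tumors. In vehicle tumors they had 37098, 51878, 51857 and 38000 CPM, so low values were not particular to Rps12. The part of this in the share was not tested.

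SR59230A tumor 4 and vehicle tumor 3 also had the lowest Rpl10a and Rpl31 of their treatments. The share of Rpl10a-ps1 was 0%, 0%, 3.80% and 36.9% in SR59230A tumors, against 13.0%, 3.15%, 4.82% and 35.8% in vehicle tumors, beside 558, 605, 691 and 276 CPM of Rpl10a in SR59230A tumors and 450.5, 626, 636 and 300.4 CPM in vehicle tumors. The share of Rpl31-ps8 was 0%, 0%, 0% and 15.6% in SR59230A tumors, against 2.65%, 0%, 0% and 24.9% in vehicle tumors. Shares of reads are not corrected for length.

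For Rpl15-ps3 the share was 12.6%, 8.04%, 16.9% and 0% in SR59230A tumors, against 0%, 2.82%, 6.90% and 0% in vehicle tumors. The parent Rpl15 had 635, 701, 569 and 592 CPM in SR59230A tumors, against 617, 812, 796 and 541 CPM in vehicle tumors. In vehicle tumor 3, Rps6-ps4 took 10.5% of the reads of its pair and Rpl30-ps9 took 26.1%, while Rps6 had 637 CPM and Rpl30 had 208 CPM there. Rpl30 had 171 to 202 CPM in SR59230A tumors and 194 to 230 CPM in vehicle tumors.

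Across the 8 tumors the coefficient of variation (SD over mean, in CPM) was 67.8% to 283% for the 8 all-or-none pseudogenes with at least 1000 reads and 7.91% to 30.5% for their parents. For pseudogene and parent summed it was 7.01% to 17.2%. The sum varied less than the parent alone in 6 of the 8 pairs, and Rpl15 and Rpl30 were the exceptions. The same held in 6 of the 7 pairs whose pseudogene had at least 1000 reads and reads in every tumor. There the coefficient was 8.10% to 20.6% for the sum and 10.8% to 30.4% for the parent. For Rpl31 the coefficient was 178% for Rpl31-ps8, 21.7% for the parent and 14.7% for the sum.

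**Figure D4:**
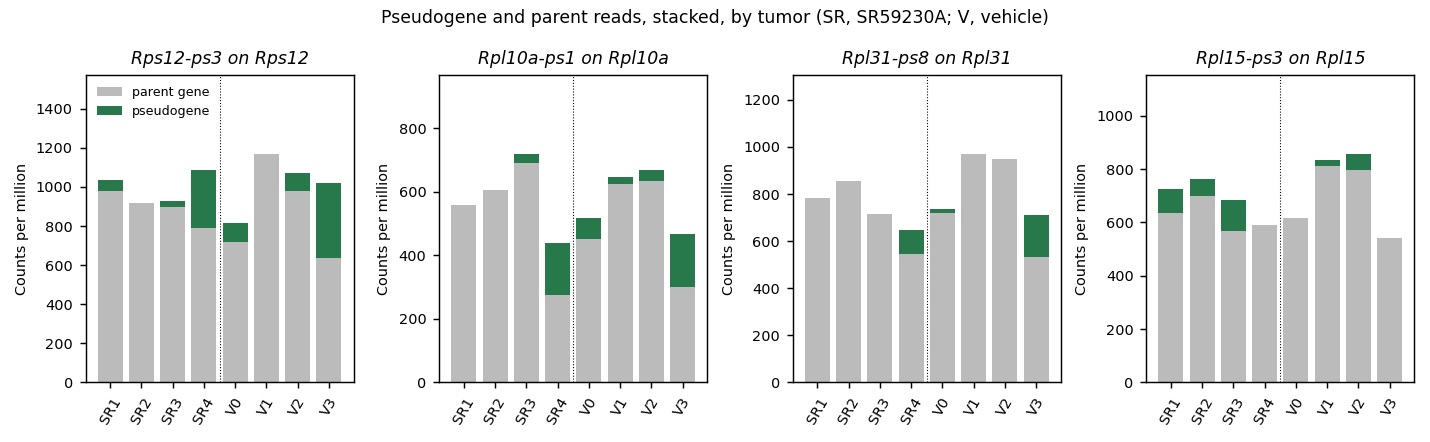
Stacked bars give CPM of the parent gene (gray) and the pseudogene (green) in each tumor, SR59230A (SR) left of the dotted line and vehicle (V) right of it, for 4 pairs. The green part is largest in SR59230A tumor 4 and vehicle tumor 3 for Rps12-ps3, Rpl10a-ps1 and Rpl31-ps8, and missing there for Rpl15-ps3.

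The other 7 pseudogenes with at least 1000 reads had reads in every tumor and held 90.9% of all pseudogene reads. Rpl10-ps3, on chromosome 9, matched Rpl10 over 740 bases and had 28 further bases. Rpl10 encodes a large subunit protein near the peptidyl transferase center. Rpl10-ps3 had 29476, 46357, 20829 and 23641 reads in SR59230A tumors, against 24255, 47104, 35298 and 21826 in vehicle tumors. Per length it averaged 2280 TPM (a level corrected for transcript length and library size) beside 317 TPM for Rpl10, and it took 84.8% to 89.8% of the reads of the pair.

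Rpl3-ps1, on chromosome X, had 26117, 38554, 19423 and 24628 reads in SR59230A tumors, against 23215, 43558, 32937 and 23084 in vehicle tumors. It averaged 1012 TPM beside 347 TPM for Rpl3, which encodes another protein of the large subunit core. Rps2-ps10, on chromosome 18, had 27331, 39725, 15160 and 21509 reads in SR59230A tumors, against 23092, 42497, 34255 and 20464 in vehicle tumors. Its mean of 1668 TPM stood beside 1441 TPM for Rps2.

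Exact copies were also among these steady genes. Rps23-ps1, on chromosome 3, matched Rps23, a protein of the decoding center of the small subunit, and had 12337, 16051, 9673 and 12768 reads in SR59230A tumors, against 8162, 19420, 12920 and 7847 in vehicle tumors. Rpl27-ps3, on chromosome 18, had 7966, 10638, 4633 and 7420 reads in SR59230A tumors, against 5793, 12550, 9167 and 6302 in vehicle tumors. Rps16-ps2 and Rpl28-ps1 likewise had 4334 to 9808 reads in SR59230A tumors and 5019 to 12449 in vehicle tumors. Of the 10 exact copies, 4 were thus above 0 in every tumor and 6 were at 0 in at least 1.

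In 5 of the 156 pairs the pseudogene exceeded its parent per length (mean TPM), namely Rpl10-ps3, Rpl3-ps1, Rpl27-ps3, Rps2-ps10 and Rps16-ps2. In that order, 3.52%, 2.63%, 0%, 1.63% and 0% of their words were found in no other gene. Their estimates thus depend on how shared reads were divided. Over the 7 steady pseudogenes the ratio of mean TPM to that of the parent was 0.865 to 7.19, and over the 8 all-or-none ones it was 0.0117 to 0.177. The steady pseudogenes had coefficients of variation of 12% to 22%, and 5 of the 7 varied less than their parent. Of all 156, 120 averaged under 1 TPM.

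Among pseudogenes with reads in every tumor, the ratio of the highest to the lowest CPM had a median of 3.90 and ranged from 1.38 to 19.5. The largest ratio was that of Rpl17-ps3, a copy of Rpl17 with 2 substitutions in 556 bases, with 58.6, 25.2, 37.9 and 2.9 reads in SR59230A tumors, against 28.5, 46.9, 25.2 and 30.2 in vehicle tumors. SR59230A tumor 4 was the low one. Rpl31-ps15, Rpl23a-ps2, Rpl36-ps12 and Rpl13-ps3 followed with ratios of 11.7, 10.0, 9.89 and 9.35, and none of them exceeded 17.8 reads in any tumor. Rpl31-ps21, shown above, had 49.0, 33.1, 16.0 and 26.0 reads in SR59230A tumors, against 29.0, 39.1, 34.0 and 32.0 in vehicle tumors.

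The study compared SR59230A with vehicle, and the pseudogenes were tested for this within a fit across all genes. edgeR's quasi-likelihood test with Benjamini-Hochberg adjustment took in 27 of the 156 pseudogenes after the filter on low counts, and called none at an adjusted p under 0.05 with a log2 fold change of at least 0.5 either way. The background was 0% of 15193 genes called. Of the 15 pseudogenes with at least 1000 reads this fit tested 12. It left out Rpl31-ps8, Rps6-ps4 and Rpl30-ps9, for which DESeq2 gave no p either. Without a filter on low counts edgeR took in all 156 pseudogenes and called 0. At an unadjusted p under 0.05 there was 1 of 27 pseudogenes (3.70%), beside 4.63% of all genes tested. The log2 fold change of SR59230A over vehicle ranged from -1.73 to 1.81 over the 27, with a median of -0.11 beside -0.0016 for all genes. It was above 0 in 10 of 27 pseudogenes, beside 49.6% of all genes, and below 0 in 17, beside 50.4%. DESeq2 called 1 of 92 pseudogenes with an adjusted p, Rps2-ps6, and 0.202% of all genes.

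Rps2-ps6 had 21.2, 16.5, 14.9 and 18.7 reads in SR59230A tumors, against 83.6, 88.5, 51.2 and 28.3 in vehicle tumors. All 4 SR59230A values lay below all 4 vehicle values, and vehicle tumor 3 was the nearest to them. It averaged 0.559 ± 0.124 CPM in SR59230A tumors and 1.89 ± 0.809 CPM in vehicle tumors (SD, n = 4 each). The edgeR log2 fold change was -1.73 (SE 0.40), with an adjusted p of 0.996, and in DESeq2 it was -1.75 with an adjusted p of 0.0472. An exact permutation test of its CPM over 70 assignments (two-sided, on log2(CPM + 0.1)) gave p = 0.0286, the smallest the design allows, and 1 after adjustment over 19569 genes.

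Rps2-ps6 shared words with 96 other genes and had 6.06% of its words to itself, so its estimate depends on how shared reads were divided. Its parent Rps2 averaged 768 ± 83.9 CPM in SR59230A tumors and 686 ± 199 CPM in vehicle tumors, with a log2 fold change of 0.21 (SE 0.17, edgeR adjusted p = 0.996). The difference between the changes of the pseudogene and its parent was not tested.

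**Figure D5:**
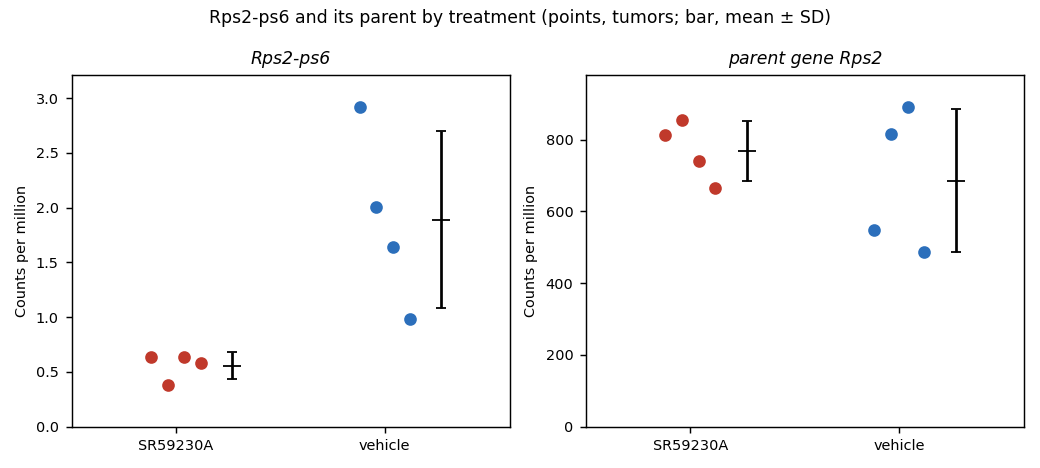
Points give CPM of Rps2-ps6 (left panel) and of its parent Rps2 (right panel) in each tumor, SR59230A left of vehicle, with the mean ± SD of 4 tumors as a bar. The Rps2-ps6 values do not overlap between treatments, at 0.559 ± 0.124 CPM in SR59230A tumors and 1.89 ± 0.809 CPM in vehicle tumors, while the Rps2 values do.

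The next smallest edgeR p-values were those of Rps2-ps10, Rpl21-ps7, Rps18-ps3 and Rps23-ps1. Rpl21-ps7 had 64.2, 91.4, 50.5 and 54.2 reads in SR59230A tumors, against 58.1, 106.0, 79.5 and 99.0 in vehicle tumors, with a log2 fold change of -0.39 (SE 0.27). Rps18-ps3 had 15.2, 48.7, 17.7 and 16.2 reads in SR59230A tumors, against 18.0, 14.8, 16.2 and 0 in vehicle tumors, with a log2 fold change of 0.98 (SE 0.73). For Rps2-ps10 and Rps23-ps1 the log2 fold changes were -0.21 (SE 0.13) and 0.19 (SE 0.16). None of the 4 passed, each with an edgeR adjusted p of 0.996.

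The zeros did not separate the treatments. No pseudogene had reads in all 4 tumors of one treatment and none of the other, while of 19569 genes 5 had reads in all SR59230A tumors alone and 4 in all vehicle tumors alone. With 4 tumors per treatment, Fisher's exact test (two-sided) of tumors above 0 cannot give a p below 0.0286. Adjusted over all genes with at least 10 reads, no gene passed, including those with a full split. The adjusted test thus could not have called a pseudogene. Among the pseudogenes its smallest unadjusted p was 0.143, and 1 after adjustment. The p of 0.143 was shared by Rpl18-ps2 and Rpl31-ps7, each above 0 in 4 of 4 SR59230A tumors and 1 of 4 vehicle tumors. Rpl19-ps9 had it too, above 0 in 1 of 4 SR59230A tumors and 4 of 4 vehicle tumors. At 0 in every tumor of one treatment were 4 pseudogenes (2.56%), Rps6-ps4, Rpl30-ps9, Rpl9-ps6 and Rpl9-ps4, beside 0.48% of genes with at least 10 reads. Of these, 3 had reads in a single tumor.

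Treatments did not overlap in CPM for 4 pseudogenes (2.56%), beside 2.04% of genes. Rps2-ps6, Rps10-ps1 and Rpl19-ps9 were lower in SR59230A tumors, 3 of 156 beside 1.16% of genes, and Rps12-ps10 was higher, 1 of 156 beside 0.879%. All but Rps2-ps6 had at most 7.2 reads in any tumor. For the all-or-none pseudogenes with at least 1000 reads the exact permutation p was at least 0.229. Rps12-ps3, for example, averaged 96.8 ± 135 CPM in SR59230A tumors and 143 ± 166 CPM in vehicle tumors (SD, n = 4 each).

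Parents and ribosomal protein genes as a whole gave no call either. edgeR called none of 49 parents (median log2 fold change 0.03) and none of 85 cytosolic ribosomal protein genes tested (median 0.04), with an unadjusted p under 0.05 for 2 in each list. Among the parents named here the largest log2 fold change was 0.55 (SE 0.24, edgeR adjusted p = 0.996) for Rps18, which averaged 34.2 ± 11.3 CPM in SR59230A tumors and 23.9 ± 3.42 CPM in vehicle tumors.

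Summed over the 156, pseudogenes with reads numbered 134, 138, 126 and 125 in SR59230A tumors, against 130, 143, 133 and 131 in vehicle tumors. The highest number in each treatment belonged to its deepest library. The pseudogenes took 11.9%, 11.8%, 11.8% and 14.1% of the reads of pseudogenes plus parents in SR59230A tumors, against 13.4%, 12.1%, 12.9% and 15.0% in vehicle tumors. In both treatments the satellite-like libraries had the highest shares. The difference between the means was -0.97 percentage points (SR59230A minus vehicle), beside a pooled SD of single tumors of 1.18 points. This difference was not tested.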

How the data were processed

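RNA-seq of total RNA from 8 tumors (4 SR59230A, 4 vehicle) was analysed. The authors made libraries with a stranded total RNA kit and quantified transcripts with Salmon in mapping-based mode. The build is GRCm38 in the study's methods and GRCm39 in the submitters' processing notes. The deposited values are estimated counts per transcript, not normalized, and TPM, per length and library. A deposited table of normalized counts was not used.

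Estimated counts were summed per gene symbol (GENCODE M21, 115685 of 116747 transcripts matched by identifier), rounded, and tested with edgeR 4.0.16 (R 4.3.3, TMM, filterByExpr, quasi-likelihood test) on all genes, with DESeq2 1.42.0 and limma 3.58.1 as alternatives. A gene counted as called where the adjusted p was below 0.05 and the log2 fold change was 0.5 or more in either direction. CPM is estimated reads over the library total, scaled to 1000000. Single genes were also compared by exact permutation and Fisher's exact tests over all genes with at least 10 reads. Words were 31 bases and parents were the symbol before -ps, aligned with edlib. The edgeR fit was tested on simulated counts.

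The members and lists were chosen with earlier results of these data known. Genes with values in every tumor are the 12 with most reads among those at 0 in some tumor with a highest tumor of at least 50 reads (9 met this), the 5 with most reads among those above 0 throughout, up to 8 with reads in at least 2 tumors of one treatment only (1 met this), the 5 smallest edgeR p, and the 5 largest ratios of highest to lowest CPM, with their parents. Rps16-ps2, Rpl28-ps1, Rpl31-ps21, Rpl23a-ps3, Rpl18-ps2, Rpl31-ps7, Rpl19-ps9, Rps10-ps1 and Rps12-ps10 were named after their values were seen, as were the satellite-like models. One neuroblastoma marker of the list and a pair of sequences are not reported here. Alternatives covered normalization, filters, tests, units, what counts as 0, and left-out tumors.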

Additional observations from a re-analysis of the deposited data

Results flagged for a closer look

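In 8 of 52 groups of 4 tumors examined, 1 tumor stood apart from the other 3 of its treatment. Chance gives about 1 in 20 for groups not chosen by their values, which is no reference here. All 23 pseudogenes examined were named for their values, 9 of them for being at 0 in some tumors and high in others. SR59230A tumor 4 had 162 CPM of Rpl10a-ps1, next to 27.3 CPM in the nearest SR59230A tumor, and 101 CPM of Rpl31-ps8, next to 0. It also had the highest share of pseudogenes in the reads of pseudogenes plus parents, at 14.1%, next to 11.9%. Vehicle tumor 3 had 177 CPM of Rpl31-ps8, next to 19.6 CPM in the nearest vehicle tumor, 74.6 CPM of Rps6-ps4 and 73.5 CPM of Rpl30-ps9, both next to 0, and 0.465 CPM of Rpl9-ps4, next to 0.0586 CPM. SR59230A tumor 1 had 1.52 CPM of Rpl9-ps6, next to 0. Of the 8, 7 were in SR59230A tumor 4 or vehicle tumor 3, which are among the 3 satellite-like libraries. Whether this goes with those reads was not tested.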

How the results depend on the processing

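No alternative other than DESeq2, which called 1 pseudogene (Rps2-ps6), changed the count of 0 called, and the count was 0 with each tumor left out. The median log2 fold change of the tested pseudogenes was -0.17 to -0.03 with single tumors left out and moved to 0.068 without SR59230A tumors 1 and 2. The log2 fold change of Rps23-ps1 turned to -0.026 without the 3 satellite-like libraries, and the cause was not tested. That of Rps2-ps6 was below 0 under every alternative, at -1.92 to -1.38 with single tumors left out. The count of 86 pseudogenes at 0 in some tumor became 170 with a total of at least 1 read, 15 with at least 50 and 9 with at least 100, which follows from the genes admitted, and was 78 to 86 with single tumors left out. With tumors left out, a pseudogene at 0 in all the tumors kept was not counted as at 0 in some. For totals of at least 1000 reads, the count of 8 was 4 without the satellite-like libraries. This alternative was chosen after the data were seen. The difference in pseudogenes detected (-3.50, SR59230A minus vehicle) was -5.92 to -0.58 with single tumors left out, and that in their share was -1.53 to -0.42 percentage points. With the replicate number as a block (tumors 1 to 3 of each treatment) 0 of 42 pseudogenes were called, as were 0 of 36 without the block. Same-numbered tumors correlated by 0.01, 0.63 and 0.53. Differently numbered ones ranged from -0.70 (SR59230A tumor 2, vehicle tumor 3) to 0.63 (SR59230A tumor 2, vehicle tumor 1). These values do not decide whether the numbers mark pairs. The labels name no pairs, and the numbers were not taken as such. Depth limits the genes of few reads, where 1 read decides a 0.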
